A study of Homo sapiens with 30 samples.

Results

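LNCaP cells given 10 nM of the androgen R1881 for 24 h were compared with LNCaP cells given 0.1 nM for the same time, to find the genes that need more androgen than 0.1 nM. The comparison rests on 6 of the 30 samples of the series, chosen by their labels as the LNCaP libraries at these doses: 3 at 10 nM and 3 at 0.1 nM, both numbered 2, 3 and 4. Of all samples, 15 are LNCaP, and the LNCaP vehicle libraries and those at 0.03 and 0.06 nM, also 3 each, serve here as the lower end of the dose scale. LNCaP is a prostate cancer cell line derived from a lymph node metastasis. It depends on androgen for growth. R1881 (methyltrienolone) is a synthetic androgen that is not aromatised. All groups shared the same line and handling: 130000 cells per well were kept for 48 h in RPMI with 8% charcoal-dextran-treated serum, which is poor in steroids, and then received vehicle or R1881. The data are bulk messenger RNA from 1 line at 1 time after dosing, and nothing in the labels says that the libraries of a group came from separate cultures. The p-values below therefore measure the spread between these libraries, which may be technical. The question behind the series is what sets high androgen apart from low androgen in a line whose growth answers androgen in a biphasic way.

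Androgens are steroid hormones that act on transcription in the nucleus, together with DNA-binding cofactors such as FOXA1, GATA2 and HOXB13. In luminal prostate cells they drive secretory genes, lipid synthesis and, at low dose, growth. At high dose they also lower the expression of many genes.

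Total counts ran from 33422397 to 46618984 per library at 0.1 nM and from 41596157 to 61199483 at 10 nM. Levels are given as counts per 1000000 (CPM), with library totals scaled by the TMM factors of edgeR, and triplets of values follow the replicate order 2, 3, 4. The 16 luminal prostate markers present in the data summed to 7750 to 8270 CPM at 0.1 nM and 14800 to 15100 CPM at 10 nM. The 10 fibroblast markers present summed to 29.8 to 34 and 30.5 to 33.6 CPM. The 10 leukocyte or endothelial markers present summed to 14.8 to 20.9 and 5.25 to 8.09 CPM. Most of that sum was VWF, the only 1 of them tested, at 18.6, 14.7 and 20.9 CPM and at 7.8, 5.16 and 6.28 CPM. At every dose the library numbered 3 stood apart, with 9.31% to 10.7% of its reads from the mitochondrial genome and 6.14% to 7.69% in libraries numbered 2 or 4.

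Of 18403 genes tested, 7376 (40.1%) passed an adjusted p of 0.05 between 10 and 0.1 nM by edgeR's quasi-likelihood test with Benjamini-Hochberg adjustment. Of these, 3787 (20.6%) were higher and 3589 (19.5%) lower at 10 nM. Counts of called list members below are to be read against these shares. At least 2-fold changes were fewer, with 526 genes higher (2.86%) and 724 lower (3.93%). The even split rests on the scaling. The mean TMM factor was 0.902 at 10 nM and 1.0 at 0.1 nM, and with library totals alone the median log2 fold change over all genes fell from -0.01 to -0.17, with 2164 genes higher and 5994 lower. All 3 libraries at 10 nM lay above all 3 at 0.1 nM in 4698 genes (25.5%) and below them in 4494 (24.4%). The genes with the largest changes were named partly for this separation, so it is no further support for them. Every change below is relative to the TMM scale. Named genes passed the test at an adjusted p under 0.05 unless it is said that they did not.

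The largest rise of any named gene was that of STEAP4, a metalloreductase (chromosome 7, 88270892 to 88306891, GRCh38). No read of it was counted in the vehicle libraries. It stood at 2.72, 4.9 and 4.33 CPM at 0.1 nM and at 137, 138 and 149 CPM at 10 nM. The groups lay far apart, with a log2 fold change of 5.14 ± 0.13 (SE, adjusted p = 1.48e-13, edgeR). NDRG1, a stress-responsive differentiation gene, went from 117, 134 and 127 CPM to 1610, 1270 and 1730 CPM (log2 3.61 ± 0.112, adjusted p = 1.27e-13, edgeR). Its 10 nM libraries were all about an order of magnitude above the 0.1 nM libraries. ERRFI1, a feedback inhibitor of the EGF receptor family (chromosome 1, 8004404 to 8026308, GRCh38), went from 53.5, 58.5 and 57.4 CPM to 465, 384 and 501 CPM (log2 2.99 ± 0.0874, adjusted p = 6.15e-14, edgeR). At vehicle these genes stood at 36.7 to 37.6 CPM (NDRG1) and 23.3 to 25.6 CPM (ERRFI1), so the step above 0.1 nM was the larger step for both. On the log2 scale 32.8% of the change of NDRG1 from vehicle to 10 nM, and 28.8% of that of ERRFI1, had been reached at 0.1 nM.

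RUNX1, a transcription factor of blood and epithelial development, showed this more sharply, with 0.784 to 0.932 CPM at vehicle, 1.42, 1.33 and 0.89 CPM at 0.1 nM and 14.9, 10.9 and 14.8 CPM at 10 nM. Only 12.8% of its log2 change had been reached at 0.1 nM. TMCC3, an endoplasmic reticulum membrane protein, rose from 3.03 to 4.77 CPM to 34.4 to 38.8 CPM, and TG, the thyroglobulin gene, from 0.687 to 0.871 CPM to 6.19 to 7.49 CPM. SLC2A3, a glucose transporter with the near-identical paralog SLC2A14, went from 1.76, 1.94 and 2.58 CPM to 19.3, 16.2 and 20.3 CPM. It too had almost no reads at vehicle. Where paralogs are this alike, the authors' counting could split reads between them, and the same caution holds for ORM1 and ORM2, for KLK2 and KLK3 and for the UGT2B genes.

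The UGT2B genes encode glucuronosyltransferases, some of which inactivate androgens. UGT2B28 stood at 2.52, 0.697 and 2.11 CPM at 0.1 nM and at 30.6, 9.92 and 30.7 CPM at 10 nM (log2 3.77 ± 0.425, adjusted p = 1.33e-06, edgeR). UGT2B11 stood at 10.7, 2.37 and 7.24 CPM and at 77.2, 17 and 69.5 CPM (log2 3.02 ± 0.673, adjusted p = 0.00145, edgeR). In both genes the libraries numbered 3 were the lowest of each group. The 10 nM values still lay above all 0.1 nM values. The vehicle level of UGT2B11, 1.93 to 15.4 CPM, overlapped its level at 0.1 nM, and the vehicle and 0.1 nM libraries cannot be ranked.

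**Figure D1:**
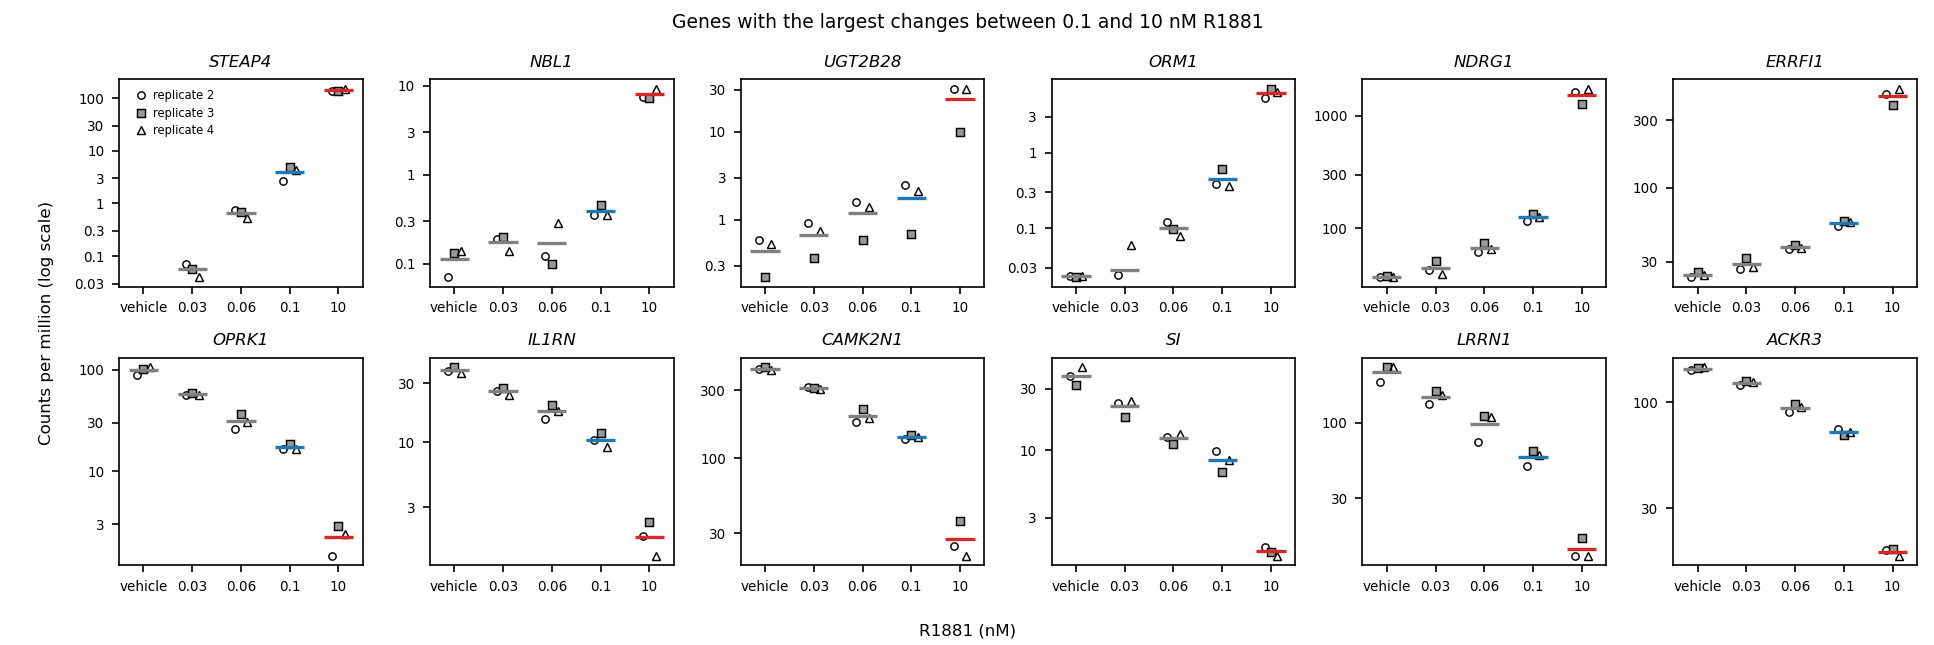
CPM on a log axis, differing between panels, for 6 of the largest rises (upper row) and 6 of the largest falls (lower row) at each dose of R1881 in nM. Points are single libraries by replicate number, bars the means of 3 (blue at 0.1 nM, red at 10 nM, grey otherwise), and libraries at 0 CPM are not drawn. Libraries of the 2 doses lie apart, which was a condition for naming most of these genes, from 2.72 to 4.9 against 137 to 149 CPM for STEAP4 and from 16.7 to 18.4 against 1.45 to 2.89 CPM for OPRK1.

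Among the falls was OPRK1, the kappa opioid receptor, a gene long used as a marker of androgen repression. It stood at 16.7, 18.4 and 16.7 CPM at 0.1 nM and at 1.45, 2.89 and 2.4 CPM at 10 nM, against 89.5 to 106 CPM at vehicle (log2 -2.91 ± 0.16, adjusted p = 1.85e-10, edgeR). IL1RN, the secreted antagonist of the interleukin-1 receptor (chromosome 2, 113107214 to 113134016, GRCh38), fell from 10.4, 11.9 and 9.26 CPM to 1.74, 2.26 and 1.21 CPM. CAMK2N1, an inhibitor of the calcium-dependent kinase CaMKII (chromosome 1, 20482391 to 20486220, GRCh38), fell from 136, 145 and 141 CPM to 24.3, 36.6 and 20.8 CPM. These 3 genes went down in both steps. ACKR3, a scavenging receptor of the chemokine CXCL12, had close replicates, with 73.7, 69.3 and 71.4 CPM against 18.7, 18.8 and 17.4 CPM (log2 -1.97 ± 0.0517, adjusted p = 2.4e-14, edgeR).

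The other large falls included SI, encoding the brush border enzyme sucrase-isomaltase (6.81 to 9.85 CPM at 0.1 nM and 1.51 to 1.77 CPM at 10 nM), and the neuronal surface proteins SLITRK3 (27.3 to 42 and 7.27 to 9.07 CPM) and LRRN1 (50.1 to 63.5 and 12 to 16.1 CPM). ABCA12, a lipid transporter of the skin barrier, fell by 2.03 on the log2 scale, SYTL2, a Rab27 effector of vesicle traffic, by 1.94, and PITX1-AS1, an antisense RNA of the PITX1 locus, by 1.89. BMX, a tyrosine kinase of the TEC family, stood at 11.4, 12.2 and 12.4 CPM at 0.1 nM and at 3.32, 3.33 and 2.72 CPM at 10 nM. Only 17% of its log2 fall from vehicle had been reached at 0.1 nM, the smallest share among these falls after LGI2, which had not fallen at all. ABCA1, the cholesterol efflux pump and a classical target of the oxysterol receptors LXR, went from 2.14, 0.893 and 2.85 CPM to 0.0527, 0.222 and 0.227 CPM (log2 -3.43 ± 0.563, adjusted p = 8.62e-05, edgeR).

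A stricter class held genes that were near silent at every dose up to 0.1 nM, with no group mean above 0.5 CPM, and had a mean of at least 2 CPM at 10 nM. It held 6 genes (0.0326% of those tested), 4 of them with a symbol. Near silent does not mean unchanged, since 5 of the 6 were already called higher at 0.1 nM than at vehicle. The exception was CHST2 (adjusted p = 0.13, edgeR). On the log2 scale 53.1% of the change of ORM1 from vehicle to 10 nM, and 28.9% of that of NBL1, had been reached at 0.1 nM. NBL1, a secreted antagonist of bone morphogenetic proteins (chromosome 1, 19596979 to 19658456, GRCh38), stood at 0.356, 0.457 and 0.356 CPM at 0.1 nM and at 7.56, 7.36 and 9.26 CPM at 10 nM, with 47 and 1052 reads in the groups. A readthrough transcript on the same strand overlaps it, and reads of the pair cannot be told apart. ORM1, encoding the plasma glycoprotein orosomucoid, went from 0.382, 0.61 and 0.356 CPM to 5.32, 6.96 and 6.33 CPM. CHST2, a sulfotransferase of glycans, went from 0.0509, 0.152 and 0.326 CPM to 3.11, 2.31 and 3.03 CPM, and the pseudogene UGT2B24P from 0.127 to 0.178 CPM to 1.13 to 2.72 CPM.

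The mirror class, with means of at least 2 CPM at every dose up to 0.1 nM and at most 0.5 CPM at 10 nM, also held 6 genes (0.0326%). These were PCDH11X, CCN3, SLC30A10, STUM, LRRTM3 and IL27RA. Of the 6, 5 were already called lower at 0.1 nM than at vehicle, all but IL27RA. Vehicle means were 11.3 CPM for PCDH11X, 8.76 CPM for SLC30A10 and 6.34 CPM for CCN3. CCN3, a secreted matricellular regulator of growth, fell from 2.34, 2.31 and 3.23 CPM to 0.29, 0.518 and 0.151 CPM. SLC30A10, a manganese exporter, fell from 2.21, 2.87 and 2.31 CPM to 0.29, 0.462 and 0.504 CPM. IL27RA, the interleukin-27 receptor, was the member nearest to flat below 0.1 nM, with 2.47 to 2.91 CPM at vehicle, 1.76 to 2.2 CPM at 0.1 nM and 0.303 to 0.58 CPM at 10 nM.

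To find genes that changed little at lower doses, those with at least a 2-fold change between 0.1 and 10 nM were split by their means below it. The limit for this split and the examples named from it were chosen after the values were seen. At every low dose, 96 of the 526 genes with at least a 2-fold rise (18.3%) stayed within 1.3-fold of the vehicle mean. By 0.1 nM, 298 of the 526 had already moved up by at least 1.3-fold and 71 had moved down. Of the 724 genes with at least a 2-fold fall, 142 (19.6%) had stayed within 1.3-fold of vehicle at every low dose, 446 had moved down at 0.1 nM and 80 had moved up. Genes within this limit are called flat here, which does not mean that they did not change: of those named below, KRT8 (adjusted p = 0.0164), TIPARP (0.00517), TSC22D1 (0.000727), ITGAV (0.00296), VCL (0.00057), TNFRSF10B (0.00163), PEG3 (0.0411), DTX4 (0.0461) and BARD1 (0.0218) passed edgeR's test between vehicle and 0.1 nM. With library totals in place of TMM scaling the flat genes numbered 52 among rises and 234 among falls.

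KRT8, the keratin of luminal epithelial cells (chromosome 12, 52897187 to 52949954, GRCh38), was the most abundant gene named in the flat class. It stood at 493, 464 and 479 CPM at vehicle, at 532, 550 and 555 CPM at 0.1 nM and at 2870, 2720 and 3210 CPM at 10 nM. The 10 nM libraries lay 5.38-fold higher on average (log2 2.43 ± 0.0626, adjusted p = 2.4e-14, edgeR). Its processed pseudogene KRT8P3 went from 1.27 to 1.74 CPM to 9.14 to 10.9 CPM, and reads shared between the pair could have been split. MERTK, a receptor tyrosine kinase that binds GAS6, stood at 7.67 to 9.74 CPM at vehicle, at 7.99, 9.95 and 9.11 CPM at 0.1 nM and at 48.4, 55.9 and 53 CPM at 10 nM. TIPARP, a mono-ADP-ribosyltransferase that restrains the aryl hydrocarbon receptor, stood at 10.4, 10.4 and 11.5 CPM and at 45.6, 43 and 45.6 CPM. TSC22D1, a growth-restraining transcriptional regulator induced by TGF-beta, stood at 189, 212 and 204 CPM and at 566, 591 and 597 CPM.

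Other flat genes that rose included ID2, a dominant-negative partner of helix-loop-helix factors (log2 1.35), GLUL, which makes glutamine (log2 1.13), and PIAS1, a SUMO ligase of transcription factors (log2 1.15). ITGAV, the integrin alpha V subunit, stood at 137, 168 and 155 CPM at 0.1 nM and at 313, 402 and 361 CPM at 10 nM, and VCL, the adhesion protein vinculin, at 210 to 221 and 427 to 456 CPM. TNFRSF10B, a death receptor for TRAIL, rose by 1.29 on the log2 scale, as did IGFBP3, a binding protein that restrains insulin-like growth factors, with 16.7, 13.7 and 16.6 CPM at 0.1 nM and 42, 27.2 and 45.7 CPM at 10 nM. Among flat genes that fell, MAP2K6, a kinase upstream of p38, went from 21.3, 17.7 and 21.5 CPM to 7.3, 4.68 and 6.61 CPM. LGI2, a secreted neuronal protein, went from 6.97, 8.51 and 6.68 CPM to 2.08, 1.79 and 1.72 CPM. PEG3, an imprinted zinc finger gene, went from 113, 126 and 141 CPM to 34.2, 34.4 and 36 CPM, and FN1, the matrix protein fibronectin, from 411, 315 and 383 CPM to 153, 121 and 129 CPM. DTX4, a ubiquitin ligase linked to Notch, fell by 1.94 on the log2 scale, FSCN1, an actin bundling protein, by 1.62, LIF, a cytokine of the interleukin-6 family, by 1.61, and WNT10B, a Wnt ligand, by 1.29.

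**Figure D2:**
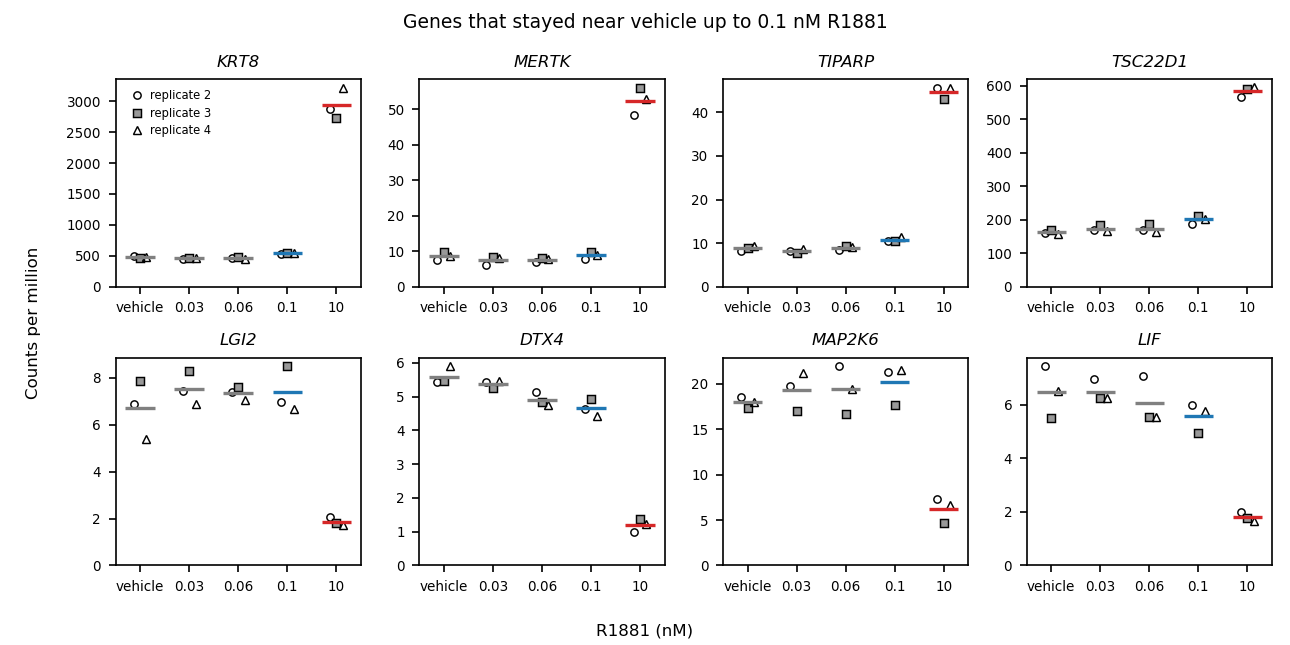
CPM on a linear axis from 0 for 4 genes that rose (upper row) and 4 that fell (lower row) at 10 nM after staying within 1.3-fold of the vehicle mean at 0.03, 0.06 and 0.1 nM R1881. Points are single libraries, bars the means of 3. KRT8 lies at 464 to 555 CPM in the vehicle and 0.1 nM libraries and at 2720 to 3210 CPM at 10 nM.

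The list of 34 genes known to be induced by androgen contained STEAP4, NDRG1 and TIPARP, and 30 of its members rose between 0.1 and 10 nM, 20 of them at least 2-fold. Its median log2 fold change was 1.17, against -0.01 over all genes tested, and it had been 1.89 from vehicle to 0.1 nM, a comparison that shares the 0.1 nM libraries. The members differed in how much was left to gain. KLK3, which encodes prostate-specific antigen, stood at 93.7 to 107 CPM at vehicle, at 2070, 2170 and 2020 CPM at 0.1 nM and at 3900, 3900 and 3760 CPM at 10 nM. For KLK3 83.1% of the log2 change from vehicle to 10 nM had been reached at 0.1 nM, and the share was 82.2% for its neighbour KLK2. FKBP5, a co-chaperone of steroid receptors, stood at 432, 515 and 493 CPM at 0.1 nM and at 2450, 2370 and 2540 CPM at 10 nM, with 56.5% reached. MAF, a transcription factor, stood at 54.4, 72.3 and 69.9 CPM and at 334, 328 and 382 CPM, with 46.7% reached. TMPRSS2, a surface serine protease, lay between with 65.3%.

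Only TRPM8, a cold-activated calcium channel, went against the list, from 27.5, 37.9 and 34.4 CPM at 0.1 nM to 22.8, 27.7 and 22.7 CPM at 10 nM (log2 -0.45 ± 0.162, adjusted p = 0.035, edgeR). The 2 groups overlapped in 1 library of each, and the call was lost with DESeq2, in thinned counts and without either library numbered 4, replicate 2 of 10 nM or replicate 3 of 0.1 nM. KLK4, KLK15 and STEAP2 were not called, and STEAP2 stood at 1010 to 1380 CPM and 1200 to 1590 CPM. On the list of 18 androgen-repressed genes, 8 fell and 3 rose, against 19.5% and 20.6% of all genes tested, with a median of -0.36. Those that fell included OPRK1, CAMK2N1, UGT2B17, MET, DDC, BCHE and SCNN1A. Those that rose were UGT2B11, UGT2B28 and CDKN1A.

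Of 19 measured transcription cofactors that act with androgen, 8 rose and 4 fell, against 20.6% of all genes tested higher and 19.5% lower. With library totals 5 rose and 7 fell. GRHL2, an epithelial transcription factor, rose from 163, 185 and 171 CPM to 269, 307 and 254 CPM. GATA2, a pioneer factor that opens chromatin, fell from 272, 247 and 245 CPM to 198, 191 and 181 CPM.

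Genes known to answer glucocorticoids share many response elements with androgen targets. Of 18 such genes 14 rose at 10 nM, against 20.6% of all genes tested, with a median of 0.59. SGK1, a kinase that controls ion channels, went from 4.33, 5.79 and 5.7 CPM to 29.8, 31.6 and 38.9 CPM, and had reached 27.9% of its log2 change at 0.1 nM. CRISPLD2, a secreted protein, belonged to the flat class with 16.8, 13.8 and 17.5 CPM at 0.1 nM and 47.2, 40.4 and 47.2 CPM at 10 nM. The exceptions that fell were HSD11B2, which inactivates cortisol (log2 -0.51), and MT2A, a metallothionein (log2 -0.28), whose call was lost without any 1 of 4 libraries (replicates 2 and 3 of 10 nM, replicates 2 and 4 of 0.1 nM). The glucocorticoid receptor gene NR3C1 was close to silent, with 0.153 to 0.305 CPM at 0.1 nM and 0.0527 to 0.203 CPM at 10 nM. It was not called (adjusted p = 0.341, edgeR). FKBP5 and ERRFI1 sit on this list too, so it is not independent of the androgen targets.

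Among 28 measured nuclear receptors, 5 rose and 8 fell, against 20.6% and 19.5% of all genes tested. NR4A1, an orphan receptor of the immediate early response, rose from 14.7, 16.2 and 17.8 CPM to 72.4, 76.2 and 75.2 CPM, with close replicates. The mineralocorticoid receptor gene NR3C2 fell from 14.6, 15.9 and 16.2 CPM to 8.49, 9.36 and 7.87 CPM, and the thyroid hormone receptor gene THRA from 60.1, 61.4 and 58.6 CPM to 38.5, 35.3 and 32.4 CPM. From vehicle to 0.1 nM their log2 fold changes had been -0.08 and -0.05.

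**Figure D3:**
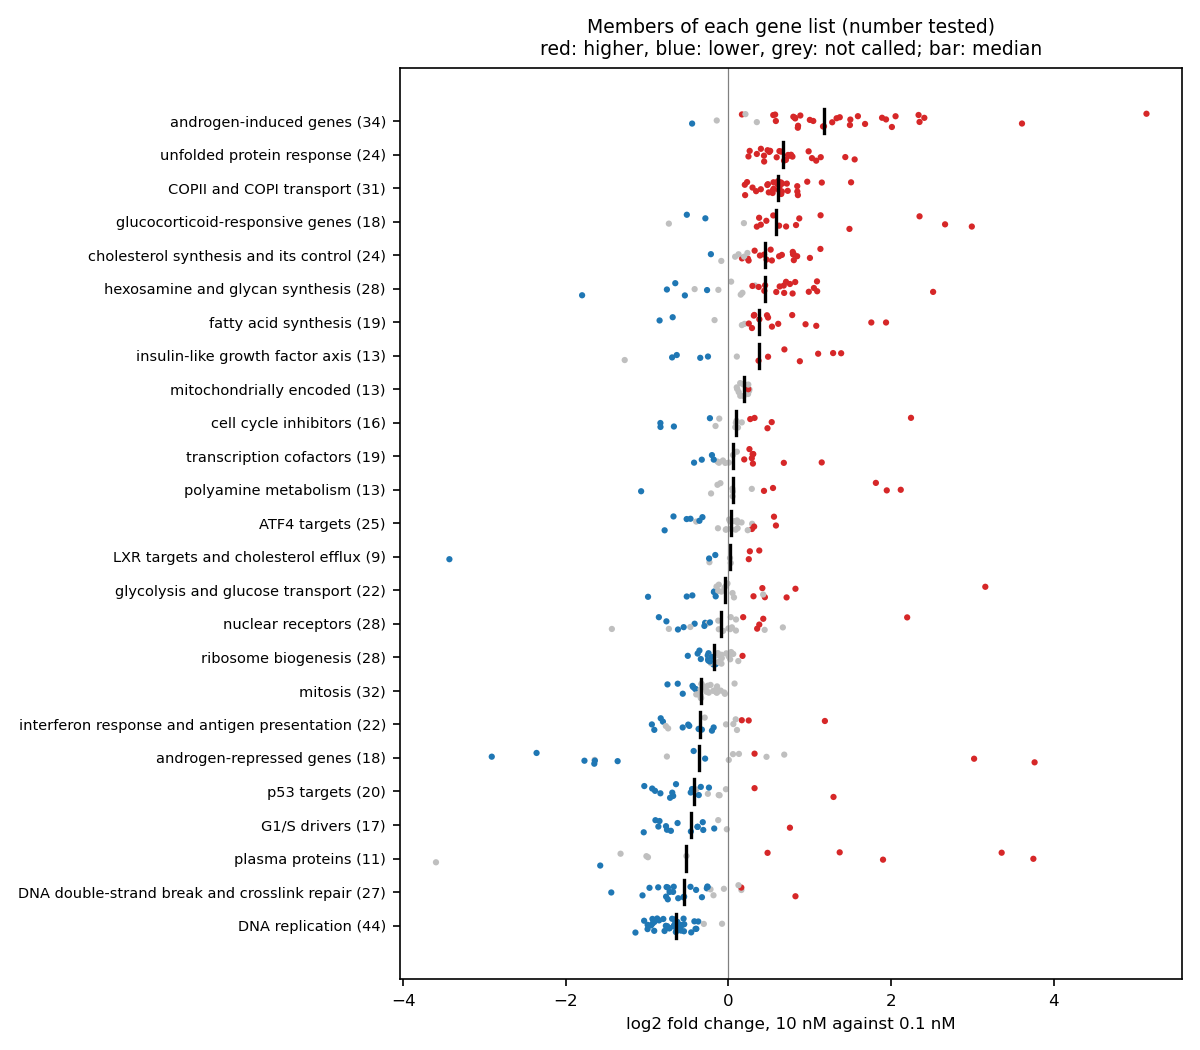
Log2 fold change at 10 nM against 0.1 nM of each tested member of the 25 lists that are not cell type markers, ordered by the list's median (black bar). Red points passed the test and were higher at 10 nM, blue points passed and were lower, and grey points did not pass. All 24 unfolded protein response genes and all 31 COPII and COPI transport genes are red, and 42 of 44 DNA replication genes are blue.

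DNA replication genes peaked at 0.1 nM. The list holds the origin recognition and MCM helicase proteins, polymerases, the PCNA clamp and its loader, and the enzymes that make nucleotides, most of which are known targets of E2F factors in late G1. At 10 nM 42 of 44 members fell and none rose, with a median log2 fold change of -0.65. From vehicle to 0.1 nM the median was 1.07, and from vehicle to 10 nM it was 0.36. The members not called were RRM2, a subunit of ribonucleotide reductase (215 to 285 CPM at 0.1 nM and 166 to 224 CPM at 10 nM), and RPA3, a subunit of the single-strand binding protein (29.6 to 38.8 and 28.8 to 35.1 CPM). RRM2 was called lower under 7 of the 15 other settings, among them without the libraries numbered 3 and without replicate 2 of 10 nM or replicate 3 of 0.1 nM. In bulk RNA, fewer cells in S phase and less RNA per such cell cannot be told apart.

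ORC1, the largest subunit of the origin recognition complex, stood at 12.4 to 16.5 CPM at vehicle, at 40.7, 34 and 39.4 CPM at 0.1 nM and at 20.6, 15.1 and 16 CPM at 10 nM (log2 -1.14 ± 0.112, adjusted p = 2.4e-07, edgeR). The 10 nM libraries overlapped those of vehicle. MCM10, which activates the helicase, stood at 72.6, 58.9 and 72.2 CPM and at 35.6, 28.6 and 35.3 CPM. CDT1, which loads the helicase, stood at 73.9, 65.5 and 76.8 CPM and at 40.9, 32.2 and 35.7 CPM. UHRF1, which maintains DNA methylation at forks, stood at 55.2, 49 and 60.4 CPM and at 30, 22.6 and 30.3 CPM. For each of these genes the libraries at 10 nM stood below those at 0.1 nM.

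Promoters of this class are shown because letters of the E2F motif were frequent in them. In RefSeq promoters of GRCh38.p14, taken as the 250 bases before the start on the gene's strand, TTTCCCGC or TTTGGCGC on either strand occurred in 13 of the 37 matched DNA replication genes (35.1%), in 4 of 11 matched G1/S genes (36.4%), and in 1.96% of all 27305 promoters. CDT1 and E2F1 are printed 5′ to 3′ with the match in capitals, at chr16:88803539-88803788 on the plus strand and chr20:33686386-33686635 on the minus strand. In CDT1 the match is the reverse complement of TTTCCCGC.
CDT1: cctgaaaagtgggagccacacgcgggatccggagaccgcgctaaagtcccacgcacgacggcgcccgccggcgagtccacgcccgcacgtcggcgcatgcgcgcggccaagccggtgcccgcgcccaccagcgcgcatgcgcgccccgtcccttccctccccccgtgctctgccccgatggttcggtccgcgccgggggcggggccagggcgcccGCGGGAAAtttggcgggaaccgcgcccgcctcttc
E2F1: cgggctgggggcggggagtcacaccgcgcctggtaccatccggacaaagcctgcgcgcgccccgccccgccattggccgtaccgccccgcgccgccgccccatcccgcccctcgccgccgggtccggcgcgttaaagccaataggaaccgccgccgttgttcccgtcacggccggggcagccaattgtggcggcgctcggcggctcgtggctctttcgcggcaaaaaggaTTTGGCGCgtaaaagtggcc
A match is a run of letters and says nothing of what binds there.

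The drivers of the G1 to S transition fell with them: 14 of 17 measured members were lower at 10 nM and 1 was higher. E2F1 itself, the transcription factor that turns on S phase genes, stood at 113, 97.2 and 117 CPM at 0.1 nM and at 67.3, 54.3 and 58.4 CPM at 10 nM, against 33.7 to 44.7 CPM at vehicle. E2F2 stood at 23.3, 19.5 and 25.5 CPM and at 11.8, 10.3 and 11.1 CPM, and CCNE2, encoding a cyclin that activates CDK2, at 43.1, 40.2 and 46.2 CPM and at 25.9, 21 and 22.8 CPM. MYC, a growth-promoting transcription factor, ended below vehicle, with 151 to 153 CPM there, 209, 183 and 201 CPM at 0.1 nM and 112, 107 and 110 CPM at 10 nM (log2 -0.85 ± 0.0581, adjusted p = 2.97e-09, edgeR). Its 10 nM libraries lay under every vehicle library. CDK6, a kinase partner of the D cyclins, was the exception and rose from 6.21, 10.1 and 7.36 CPM to 14.5, 14.1 and 11.6 CPM. CCND1, at 412 to 461 CPM and 404 to 460 CPM, was called with library totals only, and CCND3 was not called.

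Of 16 measured cell cycle inhibitors 5 were higher and 4 lower at 10 nM, against 20.6% and 19.5% of all genes tested, and with library totals 2 were called higher. CDKN2B, which encodes the CDK4 and CDK6 inhibitor p15, stood at 2.95 to 4.42 CPM at vehicle, at 1.86, 1.83 and 2.14 CPM at 0.1 nM and at 9.14, 8.82 and 9.58 CPM at 10 nM (log2 2.25 ± 0.137, adjusted p = 6.9e-10, edgeR). It dropped at the low dose and ended above vehicle. CDKN1A, encoding p21, had the same dip without the overshoot: 137 to 162 CPM at vehicle, 112, 93 and 101 CPM at 0.1 nM and 136, 125 and 122 CPM at 10 nM. CDKN1B, encoding p27, went from 68.7, 69.2 and 76 CPM to 85.7, 86.1 and 85.8 CPM. The calls for CDKN1A and CDKN1B were lost with library totals. Those that fell were RBL1, the retinoblastoma relative p107 (log2 -0.67), BTG2, an antiproliferative p53 target (log2 -0.84), LIN9, a subunit of the DREAM complex (log2 -0.84), and CDKN2A (log2 -0.23), whose call was lost under 7 of the 15 other settings.

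Mitotic genes also had their highest group mean at 0.1 nM, as the mean over members of log2(CPM + 1) minus that of vehicle. This level ran from 0.509 to 0.891 at 0.1 nM and from 0.148 to 0.63 at 10 nM, so the libraries overlapped. The number of members called at 10 nM depended on the settings. Of 32 members 7 fell and none rose, against 19.5% and 20.6% of all genes tested, with a median of -0.33. Those that fell were CDK1, CCNA2, AURKB, BUB1B, MAD2L1, NDC80 and SPC25. The count was 22 without the 5 libraries numbered 3, 23 with no filter on low counts, 18 with library totals, 11 with a stricter filter and 4 to 18 when single libraries of the 2 doses were left out. It was 18 without replicate 3 of 0.1 nM, 15 without replicate 2 of 10 nM, and 4 without replicate 3 of 10 nM, replicate 2 of 0.1 nM or replicate 4 of 0.1 nM. The libraries numbered 3 were the lowest of their dose on this list at every dose. BUB1B, a spindle checkpoint kinase, stood at 83.6, 72.7 and 92.8 CPM and at 58.2, 38.9 and 51.3 CPM. MAD2L1, another checkpoint protein, stood at 79.4, 74.1 and 89.5 CPM and at 53.9, 46.4 and 57.7 CPM. CDK1, the kinase that drives entry into mitosis, stood at 333, 273 and 333 CPM and at 260, 190 and 242 CPM, and lost its call without any 1 of 3 libraries (replicate 3 of 10 nM, replicates 2 and 4 of 0.1 nM).

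**Figure D4:**
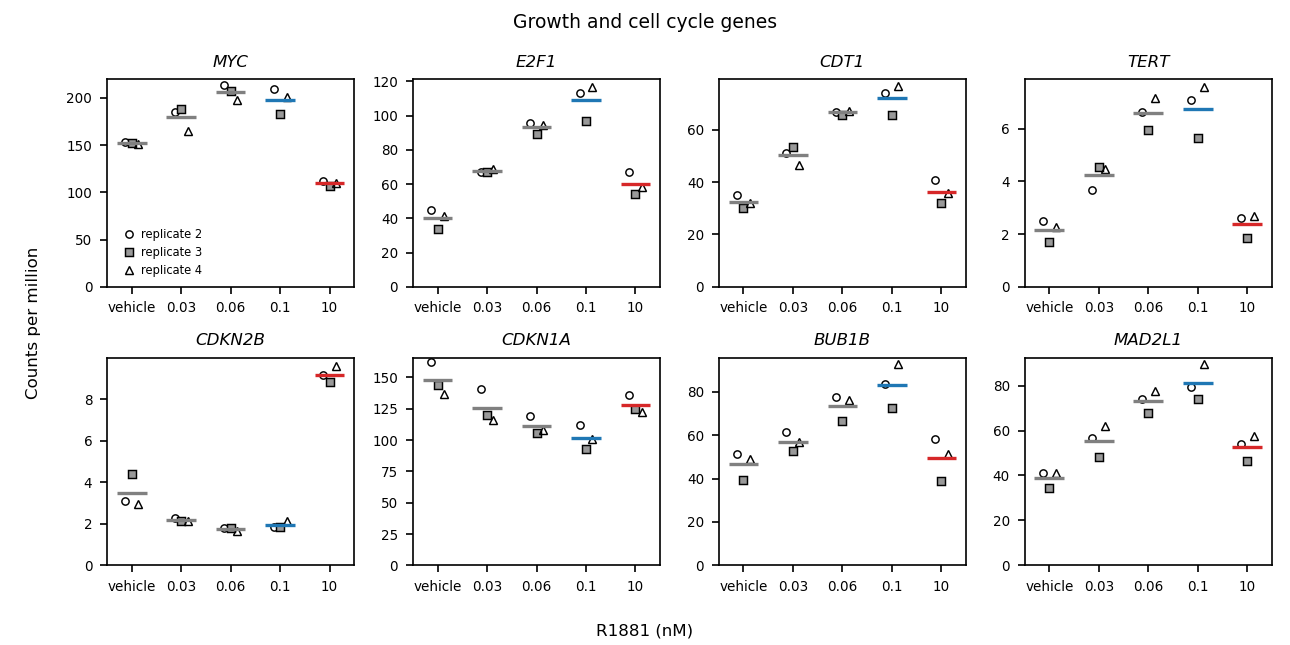
CPM on a linear axis from 0 at each dose of R1881 for MYC, E2F1, CDT1, TERT, the inhibitor genes CDKN2B and CDKN1A and the checkpoint genes BUB1B and MAD2L1. Points are single libraries, bars the means of 3. MYC, E2F1, CDT1 and TERT are lower at 10 nM than at 0.1 nM in every library, CDKN2B and CDKN1A are higher, and the MYC libraries at 10 nM (107 to 112 CPM) lie under those of vehicle (151 to 153 CPM).

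Peaks at 0.1 nM were common. Of all genes tested, 1068 (5.8%) had their highest group mean at 0.1 nM and were lower at 10 nM, and 776 (4.22%) had their lowest mean there and were higher at 10 nM. With library totals these counts were 1843 and 333. With TMM scaling, 813 of the 1068 were called higher at 0.1 nM than at vehicle, and 446 of the 776 were called lower. The direction of these calls was set by the choice of the genes, which required a mean at 0.1 nM above or below that of vehicle. Between 0.1 and 10 nM, 70 of the 1068 fell at least 2-fold and 78 of the 776 rose at least 2-fold. TERT, the catalytic subunit of telomerase (chromosome 5, 1253147 to 1295069, GRCh38), stood at 2.49, 1.69 and 2.28 CPM at vehicle, at 7.07, 5.64 and 7.57 CPM at 0.1 nM and at 2.61, 1.85 and 2.67 CPM at 10 nM (log2 -1.52 ± 0.165, adjusted p = 8.57e-07, edgeR). The rise to 0.1 nM was gone at 10 nM. CDCA7, a cofactor of chromatin remodelling, followed the same course, with 24.9, 26.6 and 27 CPM and 11.9, 12.7 and 11.7 CPM. KITLG, the ligand of the receptor KIT, was flat up to 0.1 nM (6.08, 6.49 and 7.63 CPM) and stood at 2.42, 2.59 and 2.95 CPM at 10 nM. FAM81A, SLC16A10, an amino acid transporter, and HLF, a clock-related transcription factor, fell by 1.23, 1.08 and 1.08 on the log2 scale.

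Troughs at 0.1 nM included HBEGF, a ligand of the EGF receptor, with 4.17 to 5.59 CPM at vehicle, 2.9, 3.59 and 2.94 CPM at 0.1 nM and 7.77, 7.27 and 8.37 CPM at 10 nM. RHOB, a small GTPase of endosomes, stood at 156, 152 and 155 CPM and at 338, 323 and 349 CPM, and H2BC21, a histone gene with a polyadenylated transcript, at 140, 129 and 143 CPM and at 290, 285 and 305 CPM. TP53INP2, which promotes autophagy, KDM7A, a histone demethylase, and AMACR, a racemase of branched fatty acids that overlaps a readthrough transcript, rose by 1.25, 1.21 and 1.05 on the log2 scale. For AMACR the trough itself was not called, with means of 9.98 CPM at vehicle and 8.45 CPM at 0.1 nM (adjusted p = 0.164, edgeR).

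Genes that repair double-strand breaks and crosslinks fell as well, 20 of 27, while 2 rose, against 19.5% and 20.6% of all genes tested. BARD1, the partner of BRCA1, had the largest fall and belonged to the flat class, with 183, 166 and 188 CPM at 0.1 nM and 64.9, 67.7 and 65.3 CPM at 10 nM (log2 -1.44 ± 0.103, adjusted p = 4.99e-09, edgeR). The groups lay far apart. EXO1, an end-resecting nuclease, fell from 34.5, 29.1 and 37.7 CPM to 18.5, 13.6 and 16.7 CPM. XRCC2 and RAD54L, proteins of homologous recombination, fell by 0.97 and 0.86 on the log2 scale. The risers belong to end joining: LIG4, its ligase, went from 18.4, 18.7 and 16.4 CPM to 32.1, 31.7 and 31.1 CPM, and XRCC5, the larger subunit of Ku, from 450 to 488 CPM to 510 to 526 CPM, a call lost with library totals, without the libraries numbered 3 and in 4 of the 6 fits that left out 1 library (replicates 2 and 4 of 10 nM, replicates 2 and 3 of 0.1 nM).

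Targets of p53 fell in 13 of 20 cases, against 19.5% of all genes tested, and rose in 2, CDKN1A and TNFRSF10B, against 20.6%. BBC3, the pro-apoptotic protein PUMA, fell from 7.35, 7.4 and 6.88 CPM to 4.14, 3.13 and 3.38 CPM, and DDB2, a sensor of ultraviolet damage, from 27.6, 22.6 and 25.7 CPM to 15.5, 12.7 and 11.5 CPM. TP53INP1, a stress-induced partner of p53, stood at 425 to 512 CPM at vehicle, at 221, 211 and 215 CPM at 0.1 nM and at 124, 111 and 112 CPM at 10 nM. MDM2, which degrades p53, was not called, at 160 to 163 CPM and 157 to 160 CPM. Ribosome biogenesis genes moved less, with 13 of 28 lower and 1 higher, against 19.5% and 20.6% of all genes tested. Their median was -0.17, and 21 were lower with library totals. Among them FBL, the methyltransferase fibrillarin, fell from 175 to 193 CPM to 136 to 153 CPM and LYAR, a nucleolar protein, from 26.9 to 32.2 CPM to 20.9 to 21.9 CPM. RRP12 alone rose (log2 0.17), and its call was lost under 10 of the 15 other settings.

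**Figure D5:**
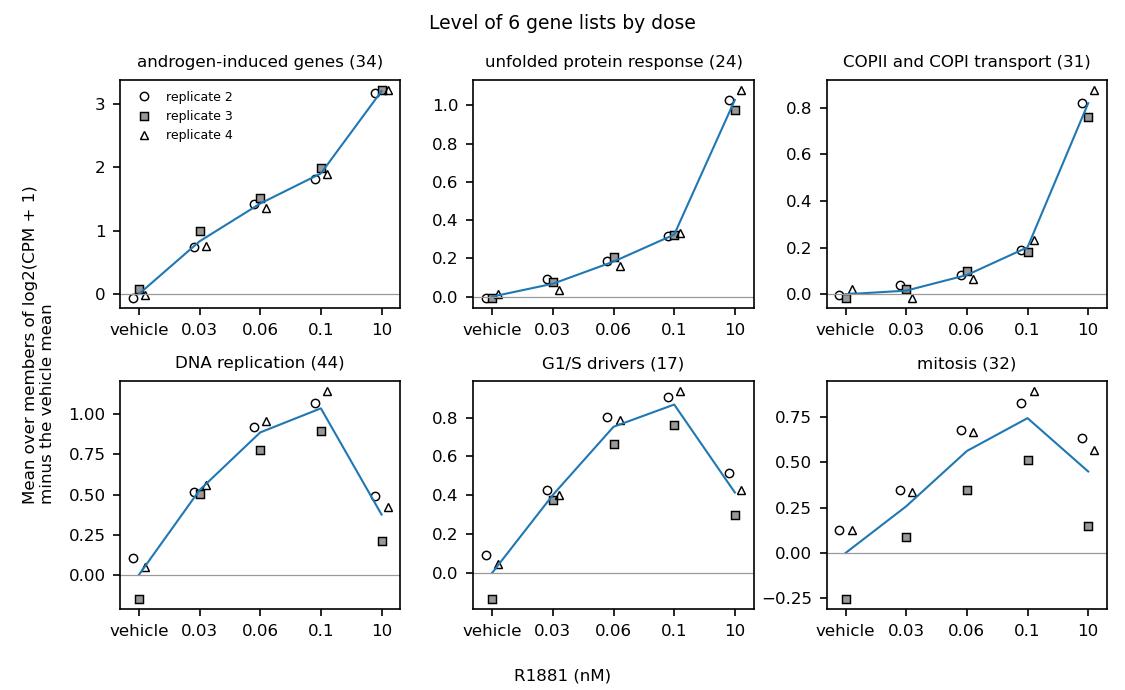
Mean over the members of 6 lists of log2(CPM + 1) minus the mean of the vehicle libraries, for each library at each dose of R1881 in nM; the line joins the means of 3 libraries and the number of members stands in each title. Group means of androgen-induced, unfolded protein response and COPII and COPI transport genes are highest at 10 nM. Those of DNA replication, G1/S and mitosis genes are highest at 0.1 nM and lower at 10 nM. For mitosis genes the libraries at 0.1 and 10 nM overlap.

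The unfolded protein response matches the folding capacity of the endoplasmic reticulum to the load of secretory protein through the sensors IRE1, PERK and ATF6. All 24 listed genes rose at 10 nM, with a median log2 fold change of 0.67, and 21 were called with library totals. From vehicle to 0.1 nM the median had been 0.34. ERN1, which encodes IRE1, stood at 57.6, 76.3 and 61.5 CPM at 0.1 nM and at 165, 180 and 185 CPM at 10 nM. DNAJB9, a co-chaperone and target of the IRE1 branch, stood at 22.4, 26.2 and 22.6 CPM and at 65.2, 72.7 and 71.2 CPM (log2 1.55 ± 0.0745, adjusted p = 3.73e-11, edgeR). EDEM3, which marks misfolded glycoproteins for degradation, stood at 103, 119 and 112 CPM and at 235, 249 and 251 CPM, and DNAJC3, a luminal co-chaperone, at 101, 112 and 103 CPM and at 213, 226 and 226 CPM. For each of these genes the libraries at 10 nM stood above those at 0.1 nM. The smallest rises were those of ATF6 (log2 0.25) and SEL1L, an adaptor of the degradation complex (log2 0.26), both lost with library totals.

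HSP90B1 and CALR are named for their promoters, which hold the endoplasmic reticulum stress element, the letters CCAAT, any 9 bases and CCACG on either strand. The element occurred in the 250 bases before the start of 6 of the 22 matched genes of this list (27.3%), those of HSPA5, HSP90B1, XBP1, CALR, CANX and CRELD2, and in 0.0806% of all promoters. HSP90B1, the chaperone GRP94, has the element on both strands, at chr12:103930160-103930409 on the plus strand. CALR, the lectin chaperone calreticulin, has it once on the reverse strand, at chr19:12938359-12938608 on the plus strand. Capitals mark the matches.
HSP90B1: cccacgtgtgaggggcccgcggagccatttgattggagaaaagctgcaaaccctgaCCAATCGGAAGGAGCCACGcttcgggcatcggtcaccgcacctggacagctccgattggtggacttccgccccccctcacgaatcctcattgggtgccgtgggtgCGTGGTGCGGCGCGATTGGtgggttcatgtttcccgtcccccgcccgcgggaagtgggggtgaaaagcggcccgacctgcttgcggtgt
CALR: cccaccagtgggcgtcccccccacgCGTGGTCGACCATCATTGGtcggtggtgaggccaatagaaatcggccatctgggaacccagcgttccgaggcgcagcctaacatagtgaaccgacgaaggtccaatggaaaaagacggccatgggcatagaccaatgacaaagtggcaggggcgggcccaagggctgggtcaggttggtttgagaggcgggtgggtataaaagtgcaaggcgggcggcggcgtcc
HSP90B1 stood at 918, 816 and 956 CPM at 0.1 nM and at 1300, 1130 and 1330 CPM at 10 nM (log2 0.48 ± 0.0929, adjusted p = 0.000408, edgeR). CALR stood at 1540, 1340 and 1520 CPM and at 2010, 1680 and 1930 CPM (log2 0.35 ± 0.0839, adjusted p = 0.00265, edgeR), a call lost with library totals. In each gene the 10 nM libraries lay above all those at 0.1 nM, with replicate 3 the lowest of each group.

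COPII and COPI coats carry cargo from the endoplasmic reticulum to the Golgi and back. All 31 measured members of this list rose, with a median of 0.61, and 27 were called with library totals. The step below had been smaller, with a median of 0.20 from vehicle to 0.1 nM. SEC24D, a cargo adaptor of COPII, stood at 51.1, 51.6 and 52.4 CPM at 0.1 nM and at 153, 130 and 159 CPM at 10 nM. CREB3L4 and CREB3L2, membrane-bound transcription factors that control secretory genes, stood at 96.8, 97.5 and 110 CPM and at 220, 218 and 237 CPM, and at 85, 87.1 and 90.9 CPM and 179, 154 and 183 CPM. ARF4, a small GTPase of the Golgi, rose from 189 to 202 CPM to 342 to 365 CPM. SEC23A, of the inner COPII coat, showed the smallest rise of these (124 to 125 and 138 to 149 CPM), and its call was lost with library totals and without replicate 4 of 10 nM.

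Polyamines, which the prostate secretes in large amounts, are made from ornithine by ODC1 and extended by SMS. ODC1 stood at 503, 521 and 579 CPM at 0.1 nM and at 2160, 2080 and 2730 CPM at 10 nM (log2 2.12 ± 0.0908, adjusted p = 9.01e-12, edgeR). Only 21.5% of its log2 change from vehicle had been reached at 0.1 nM. SMS, spermine synthase, stood at 185, 176 and 212 CPM and at 683, 574 and 759 CPM. SAT1, which acetylates polyamines for export, stood at 67.5, 72.2 and 76 CPM and at 255, 276 and 301 CPM. All 3 were high in every 10 nM library. In all, 5 of 13 members rose and 1 fell, against 20.6% and 19.5% of all genes tested. The fall was that of AOC1, which oxidises diamines (0.916 to 1.28 and 0.462 to 0.555 CPM). The number that fell was 4 with library totals, 3 with the stricter filter, without the libraries numbered 3 or without replicate 3 of 10 nM alone, and 2 with no filter on low counts or without replicate 2 of 0.1 nM.

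Cholesterol synthesis genes, driven by SREBP2, rose in 18 of 24 cases, against 20.6% of all genes tested, with a median of 0.45. SCAP, the escort of the SREBP factors, stood at 149, 144 and 143 CPM and at 327, 296 and 333 CPM. HMGCS1, an early enzyme of the pathway, stood at 131, 140 and 137 CPM and at 261, 269 and 288 CPM, and IDI1, the isopentenyl isomerase, at 95.9 to 104 and 155 to 190 CPM. STARD4, a sterol transporter, had a lower mean at 0.1 nM than at vehicle, with overlapping libraries (22.6, 27.4 and 23.3 CPM against 26.9 to 34 CPM). It stood at 37.9, 52.8 and 40.9 CPM at 10 nM. TM7SF2, a sterol reductase that overlaps VPS51, fell by 0.21 on the log2 scale. Of 9 measured LXR targets and efflux genes, 3 rose and 3 fell, against 20.6% and 19.5% of all genes tested. ABCA1 had by far the largest change. With library totals 1 rose and 4 fell.

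Fatty acid synthesis genes rose in 14 of 19 cases, against 20.6% of all genes tested, with a median of 0.38. ACSL3, an acyl-CoA synthetase and known androgen target, stood at 464, 493 and 506 CPM and at 1910, 1680 and 2020 CPM. FASN, the fatty acid synthase, stood at 2740, 2910 and 2690 CPM and at 5310, 5180 and 5610 CPM. The elongases went both ways: ELOVL2 rose from 2.04 to 4.09 CPM to 8.43 to 10.9 CPM and ELOVL7 from 108 to 135 CPM to 238 to 272 CPM, while ELOVL6 fell from 50.9 to 53.2 CPM to 27.5 to 31.2 CPM. ACACB, the mitochondrial acetyl-CoA carboxylase, also fell (21.7 to 23.4 and 12.7 to 14.7 CPM).

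Of 28 genes of hexosamine and glycan synthesis 17 rose and 5 fell, against 20.6% and 19.5% of all genes tested. Those that fell were MAN1A1, ST3GAL1, GALNT3, MGAT4A and MAN1C1. ST6GALNAC1, the sialyltransferase that makes sialyl-Tn, had 80.8% of its log2 change at 0.1 nM and went from 42, 35.9 and 40 CPM to 97.8, 66.3 and 87.4 CPM. B3GNT2, which extends lactosamine chains, had 6.56% and went from 7.46, 9.03 and 7.12 CPM to 14.8, 19.2 and 16.3 CPM. MAN1A1, a Golgi mannosidase, fell from 14.7 to 19.4 CPM at vehicle to 2.16 to 2.43 CPM and then 0.58 to 0.721 CPM. Of 22 measured genes of glycolysis 6 were higher and 6 lower, against 20.6% and 19.5% of all genes tested (11 lower with library totals, 9 without the libraries numbered 3, and 4 with no filter on low counts or without replicate 2 or replicate 4 of 0.1 nM). Besides SLC2A3, HK1, a hexokinase, rose from 177, 193 and 176 CPM to 310, 331 and 326 CPM and PFKFB2, which sets the level of a glycolytic activator, from 56.6, 71.7 and 59.6 CPM to 91.2, 123 and 94.7 CPM. ENO2, the neuronal enolase, fell from 34 to 37.5 CPM to 16.8 to 19 CPM.

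In the insulin-like growth factor axis 7 of 13 genes rose and 4 fell, against 20.6% and 19.5% of all genes tested. IGF1R, the receptor, stood at 15.9 to 24.1 CPM at vehicle, at 90.2, 124 and 100 CPM at 0.1 nM and at 263, 283 and 278 CPM at 10 nM. IRS2, an adaptor of the receptor, rose from 12.9, 15.8 and 12.1 CPM to 27.5, 32.3 and 28.1 CPM. FOXO3, a transcription factor inhibited by this pathway, dipped and then rose, with 231 to 257 CPM at vehicle, 160, 187 and 175 CPM at 0.1 nM and 313, 326 and 322 CPM at 10 nM. IGFBP2 fell from 92.7 to 99.5 CPM to 53.4 to 63.1 CPM while IGFBP3 rose.

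Interferon and antigen presentation genes fell in 11 of 22 cases and rose in 3 (STAT2, IRF7 and B2M), against 19.5% and 20.6% of all genes tested. Of the 22, 6 fell when replicate 3 of 10 nM was left out and 7 without replicate 2 of 0.1 nM. OAS3, an antiviral sensor of double-stranded RNA, peaked at 0.1 nM, with 27.5 to 30.3 CPM at vehicle, 48.8, 47.1 and 56.2 CPM at 0.1 nM and 28.5, 23 and 29.4 CPM at 10 nM. B2M, the light chain of class I antigens, went from 185, 207 and 188 CPM to 420, 458 and 443 CPM. Plasma protein genes were few: of 11 measured, 5 rose and 1 fell, against 20.6% and 19.5% of all genes tested. The number that fell was 3 with library totals or without replicate 3 of 0.1 nM, and 2 with DESeq2, with no filter, in a fit of the 6 libraries alone, in thinned counts and without replicate 2 or replicate 4 of 10 nM. F5, coagulation factor V, went from 22.2, 22.7 and 21.2 CPM to 89.6, 75.5 and 81.9 CPM, AZGP1, a prostate secretory protein, from 36, 37.4 and 40.9 CPM to 89.2, 98.3 and 107 CPM, and ORM2 from 0.763, 0.98 and 0.92 CPM to 8.8, 9.68 and 9 CPM. SERPINI1, neuroserpin, fell from 9.19, 6.51 and 8.25 CPM to 3.37, 2.48 and 2.19 CPM. Of 25 amino acid stress genes under ATF4, 4 were higher and 6 lower, against 20.6% and 19.5% of all genes tested. With library totals, or without replicate 3 or replicate 4 of 10 nM or replicate 2 of 0.1 nM, 2 were higher. ETV1, the ETS factor that LNCaP overexpresses from a translocation, rose by 0.41 on the log2 scale, from 215 to 228 CPM to 286 to 296 CPM. Of the 13 mitochondrially encoded genes 1 was called, MT-CO1, which was higher. The number called higher was 9 with no filter on low counts, 3 without the libraries numbered 3 or in a fit of the 6 libraries alone, 2 with DESeq2 or without replicate 3 of 0.1 nM, and 0 with library totals, with the stricter filter or when any other single library of the 2 doses was left out.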

How the data were processed

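Libraries were made with the KAPA kit for stranded mRNA, per the labels. The submitters' processing notes name GRCh38/hg38 and the tools STAR 2.7.8a, Trimmomatic 0.39 and DESeq2 1.36.0, with no order. The counter, annotation release and strand setting are not given in the sources used here. The authors deposited raw counts per Ensembl gene for 37843 genes. Symbols came from a matched table (28081 genes) and positions from GENCODE 29. The VCaP table's 15 columns match no label and were not used.

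Counts were fitted with edgeR 4.0.16 (R 4.3.3): TMM, filterByExpr by group, quasi-likelihood, 1 mean for each group of the 15 LNCaP libraries, the two-sided contrast of 10 nM minus 0.1 nM, Benjamini-Hochberg adjusted p under 0.05. A further 15 settings were tried. In simulated data of the same size, 67 of 18403 genes changed by 0.5 (log2), 67 by 1 and 66 by 2. The test found 44.8%, 82.1% and 95.5% of them, with 8 false calls among 156. Far fewer genes changed there than were called in the real comparison, so these rates may not hold for it.

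The comparison and the gene lists were chosen with earlier results of these data known. Named genes were the 12 largest called rises and falls with separate libraries and at least 5 CPM, the leading members of the near silent classes, the 8 largest falls from a peak and 6 largest rises from a trough at 0.1 nM, a set of fixed genes, and in each list up to 4 leading, up to 2 least changed and all exceptional members; some of these are not reported here, and exceptions are stated where they occur. Among 161 genes named with values, 38 lie over a gene of the same strand and 85 over one of the other strand, so that their reads could be shared.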

Additional observations from a re-analysis of the deposited data

How the results depend on the processing

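Of the 7376 calls, none was reversed under any of the 15 other settings. Counts over all genes moved by more than 1.5 times under 2 settings. With library totals, 2164 genes were higher and 5994 lower, 1843 had their highest and 333 their lowest mean at 0.1 nM, and 52 rises and 234 falls were flat below. With the stricter filter (1 CPM in 3 libraries, mean count 20), 337 genes rose and 462 fell at least 2-fold. Leaving out single libraries gave 3137 to 3555 genes higher and 3039 to 3407 lower; DESeq2 gave 3743 and 3387.

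Blocked by replicate number, 4419 genes were higher and 4328 lower, and 26 mitosis genes were lower. The main fit did not use the numbers as a block. Deviations of same-numbered libraries correlated at 0.15, 0.32 and 0.06, and those of unlike numbers at -0.23 to 0.10. Replicate 4 of 0.1 nM correlated better with replicate 2 of 10 nM (0.10) than with its own number, while the other libraries correlated best with theirs.

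The plasma protein median turned from -0.52 to 1.34 under the stricter filter, which tests fewer genes. When single libraries were left out, CCND1 ran from -0.099 to 0.031 and RPA3 from -0.18 to 0.014 (log2); neither was called with TMM scaling and all libraries. Depth limits genes near 0.5 CPM, and a log2 change of 0.5 was often missed in simulated data.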
